A study of Mus musculus with 29 samples.

Results

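Chemokines are small secreted proteins that attract leukocytes, and the 10 chemokine genes described here were taken by name: Ccl2, Ccl7, Ccl8 and Ccl11 of the CC family, Cxcl1, Cxcl10, Cxcl12, Cxcl14 and Cxcl16 of the CXC family, and Cx3cl1, the CX3C member. Their symbols were matched to the Ensembl identifiers of a table of 56748 genes, counted by RNA sequencing of the mouse aortic arch. All 10 had counts, and 4 of them (Ccl11, Cxcl12, Cxcl16 and Cx3cl1) were above 10 counts in more than 10 of 28 mice, the filter that left 12353 genes for testing. The other 6 stayed under it and are given by their raw counts.

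Each library came from 1 mouse perfused with PBS, in 6 groups of 4 or 5 that each held females and males. Ercc1Δ/- mice carry 1 null allele and 1 truncated, hypomorphic allele of the DNA repair gene Ercc1 in every cell of the body, and Ercc1+/+ littermates (WT) of the same F1 C57BL6J/FVB background were the controls. All mice were fed AIN93G pellets: 5 WT and 5 Ercc1Δ/- mice were 6 weeks old and fed ad libitum (AL), 4 and 4 were 22 weeks old on AL, and 5 and 5 were 22 weeks old under dietary restriction (DR), which began at 7 weeks of age and was set at 30% less food from 9 weeks onward. Another WT mouse of 22 weeks on AL, library 003, entered no comparison.

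The libraries held 921167 to 9616382 counts assigned to genes, with group medians of 3627249 to 6212607 in WT mice and 1576566 to 3162244 in Ercc1Δ/- mice, so the low chemokines were counted least deeply in the Ercc1Δ/- groups. Ercc1 itself had 102 ± 33.7, 115 ± 8.66 and 115 ± 14.6 normalized counts (mean ± SD, n = 5, 4 and 5) in the WT groups in the order above, and 41.8 ± 9.17, 58.9 ± 7.34 and 57.0 ± 23.6 (n = 5, 4 and 5) in the Ercc1Δ/- groups. Smooth muscle markers (8 of 8 with counts) summed to 118800 to 159700 normalized counts in the WT mice and to 62430 to 122100 in the Ercc1Δ/- mice, and endothelial and adventitial fibroblast markers were counted in every library. Normalized counts are counts scaled by TMM to the mean library of 3683502 counts on tested genes.

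A chemokine binds a G protein-coupled receptor on a leukocyte, while heparan sulfate on the vessel wall holds the ligand in place and atypical receptors take it up without signalling. Cx3cl1 and Cxcl16 differ from the rest in being made as membrane-bound proteins, which hold cells by contact until proteases of the ADAM family shed them. In the arterial wall, endothelium, smooth muscle, adventitial fibroblasts and resident macrophages all make chemokines, and several of the genes are driven by NF-kappaB or by interferons.

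Promoter sequence was taken from RefSeq (GRCm38.p6, 250 bases before the annotated start, on the strand of the gene), where 6 of the 10 genes had an entry and Ccl2, Ccl7, Ccl11 and Cxcl16 had none. The 4 printed here belong to the genes on which the results turn: Cx3cl1 and Ccl8, which differed in most comparisons, Cxcl12, the most abundant, and Cxcl10, which was counted mainly in 1 group. They lie at chr8:94771930-94772179 (plus strand), chr11:82114935-82115184 (plus), chr6:117168285-117168534 (plus) and chr5:92348890-92349139 (minus), and capitals mark matches to the motifs named in the next paragraph.
Cx3cl1: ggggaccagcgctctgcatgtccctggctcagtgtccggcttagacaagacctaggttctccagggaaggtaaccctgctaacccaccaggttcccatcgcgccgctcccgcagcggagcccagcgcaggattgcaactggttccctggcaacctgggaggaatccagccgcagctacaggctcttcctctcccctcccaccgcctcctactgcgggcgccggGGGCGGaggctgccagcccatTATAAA
Ccl8: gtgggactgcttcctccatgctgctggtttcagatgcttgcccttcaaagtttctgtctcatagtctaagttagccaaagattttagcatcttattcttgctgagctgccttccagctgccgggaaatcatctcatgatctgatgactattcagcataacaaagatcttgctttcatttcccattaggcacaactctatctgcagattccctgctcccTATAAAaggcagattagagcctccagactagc
Cxcl12: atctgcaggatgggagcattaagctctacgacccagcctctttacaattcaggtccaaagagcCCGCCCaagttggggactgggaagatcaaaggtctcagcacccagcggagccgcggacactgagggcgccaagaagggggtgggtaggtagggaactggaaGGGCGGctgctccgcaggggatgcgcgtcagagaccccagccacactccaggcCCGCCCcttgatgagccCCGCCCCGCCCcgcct
Cxcl10: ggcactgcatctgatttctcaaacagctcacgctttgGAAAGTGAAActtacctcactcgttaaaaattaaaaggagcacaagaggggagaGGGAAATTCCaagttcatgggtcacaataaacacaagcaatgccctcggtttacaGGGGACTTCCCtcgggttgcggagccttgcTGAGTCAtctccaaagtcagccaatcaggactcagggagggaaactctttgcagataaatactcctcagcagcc

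Both strands were searched for the TATA box TATAAA (in 12.4% of 32851 promoters of this length), the GC box GGGCGG (32.7%), the interferon-stimulated response element, taken as GAAA and again GAAA after any 2 bases (2.98%), the AP-1 motif TGANTCA (6.75%), the gamma-interferon activated site TTCNNNGAA (7.02%) and the NF-kappaB motif by its name (7.25%). The Cxcl10 promoter held 3 matches to the NF-kappaB motif, 2 of which overlap by all but a base, with 1 response element and 1 AP-1 motif. Cxcl12 held 5 GC boxes and no other motif searched, Ccl8 held a TATA box 32 bases before its start, and Cx3cl1 held 1 GC box and, 6 bases before its start, 1 TATA box. Of the promoters not printed, Cxcl1 held 2 overlapping NF-kappaB matches, and Cxcl14 held 1 response element and 1 gamma-interferon activated site. A match describes letters in this window only.

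The genes fall at several places in the genome (GRCm39, the build of the counts). Ccl2 (chr11:81926397-81928279), Ccl7 (chr11:81936532-81938351), Ccl11 (chr11:81948618-81953781) and Ccl8 (chr11:82006007-82007625) lie on the plus strand within one cluster, where Ccl8 starts 79.6 kb after Ccl2. Cxcl16 (chr11:70344517-70352620, minus strand) lies apart on the same chromosome. Cxcl1 (chr5:91039094-91040974) and Cxcl10 (chr5:92494497-92496748, minus strand) are on chromosome 5, Cxcl12 on chr6:117144945-117158328, Cxcl14 on chr13:56436352-56444603 (minus strand) and Cx3cl1 on chr8:95498637-95509055. Cxcl10, Cxcl16 and Cx3cl1 overlap other annotated genes on the opposite strand (Art3, Med11 with Zmynd15, and 1700121C10Rik); the kit marked strand, and the strand setting of the counting is not given in the sources used here, so these counts are less certain.

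Per kilobase of exon, Cxcl12 stood first in all 6 groups, with group means of 58.4 to 102 normalized counts per kb. CXCL12 is the ligand of CXCR4 and ACKR3 and retains progenitor cells and leukocytes in tissue. Ccl11, the eosinophil attractant eotaxin, was second in 5 groups (30.7 to 44.9 per kb). In the AL-fed Ercc1Δ/- mice of 22 weeks the second was instead Ccl8, at 84.6 ± 44.9 per kb (SD, n = 4), against 39.1 ± 21.8 for Ccl11 and 38.2 ± 10.3 for Cx3cl1; in that group the sample ranges of Cxcl12 and Ccl8, of Ccl8 and Ccl11 and of Ccl11 and Cx3cl1 overlapped. Cxcl10 and Cxcl14 took the last 2 places in every group, at 0 to 2.04 and 0.144 to 1.32 per kb.

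**Figure D1:**
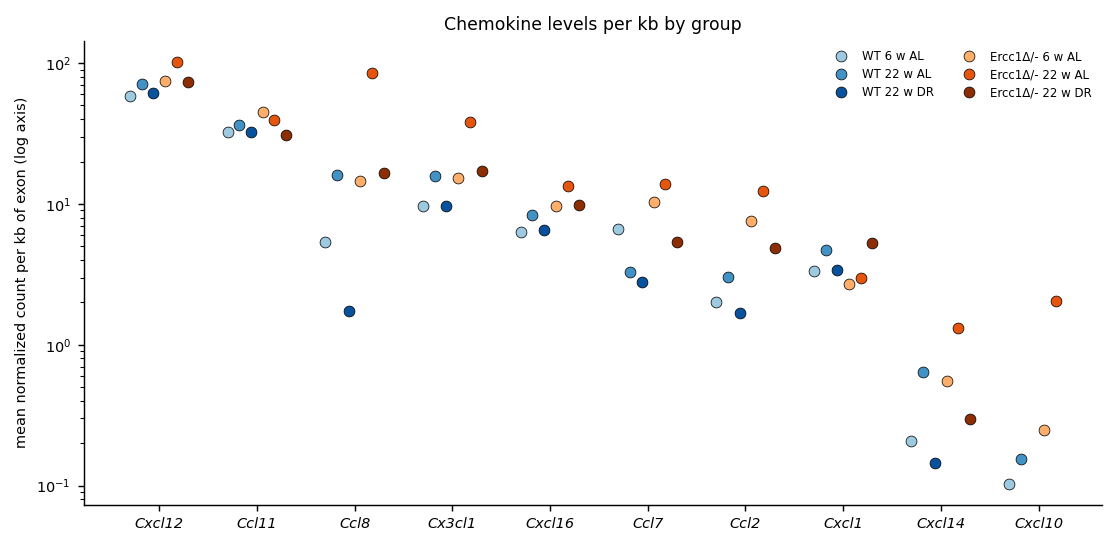
Mean normalized count per kb of exon (log axis) of the 10 chemokines in the 6 groups, 1 point per group (n = 4 or 5 mice). Cxcl12 is highest throughout; the bright orange point of Ercc1Δ/- mice at 22 weeks on AL is the top point for Cxcl12, Ccl8, Cx3cl1, Cxcl16, Ccl7, Ccl2, Cxcl14 and Cxcl10, and Cxcl10 has no point under DR, where its mean is 0.

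Cx3cl1, or fractalkine, is displayed by activated endothelium and smooth muscle and binds CX3CR1 on monocytes and macrophages. It was higher in the Ercc1Δ/- aorta at 22 weeks under both diets, higher at 22 than at 6 weeks in Ercc1Δ/- mice, and lower under DR in both genotypes. In the 4 AL-fed Ercc1Δ/- mice of 22 weeks its normalized counts were 128, 145, 123 and 212, and in the 4 WT mice of that age and diet they were 66.0, 74.2, 55.6 and 56.2. Every Ercc1Δ/- mouse was above every WT mouse. The log2 fold change was 1.24 (SE 0.27, edgeR adjusted p = 0.0058), or 2.36-fold.

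Under DR the 5 Ercc1Δ/- mice had 56.5, 66.9, 74.4, 77.7 and 64.8 normalized counts of Cx3cl1 and the 5 WT mice 38.1, 39.2, 29.3, 46.8 and 37.1. The groups again did not overlap, with a log2 fold change of 0.88 (SE 0.19, edgeR adjusted p = 0.0023). Relative to AL, DR lowered Cx3cl1 in Ercc1Δ/- mice by a log2 fold change of -1.11 (SE 0.18, edgeR adjusted p = 0.0015) and in WT mice by -0.76 (SE 0.17, edgeR adjusted p = 0.022), with no overlap between diets in either genotype. The diet comparisons share their AL mice with the genotype comparison on AL. The genotype by diet interaction was -0.35 (SE 0.25, edgeR adjusted p = 0.75), so the fall was not shown to differ between genotypes.

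The fall of Cx3cl1 in WT mice was the less stable one: its edgeR adjusted p rose to 0.18 without WT mouse 018 on AL, to 0.078 without WT mouse 017 and to 0.065 without WT mouse 028 on DR, and to 0.067 with library 003 added. Leaving out any 1 library ended none of the other 4 calls of Cx3cl1.

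At 6 weeks the 5 Ercc1Δ/- mice had 96.5, 77.3, 47.0, 40.5 and 40.7 normalized counts of Cx3cl1 and the 5 WT mice 58.9, 28.4, 40.2, 17.1 and 48.0. These ranges overlapped, and the log2 fold change of 0.56 did not pass (SE 0.28, edgeR adjusted p = 0.42). Cx3cl1 rose with age in Ercc1Δ/- mice (log2 fold change 1.25, SE 0.27, edgeR adjusted p = 0.0094), and the 4 older mice all lay above the 5 younger. In WT mice the log2 fold change with age was 0.58 (SE 0.28, edgeR adjusted p = 0.58), and the interaction of genotype and age was 0.67 (SE 0.39, edgeR adjusted p = 0.56).

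**Figure D2:**
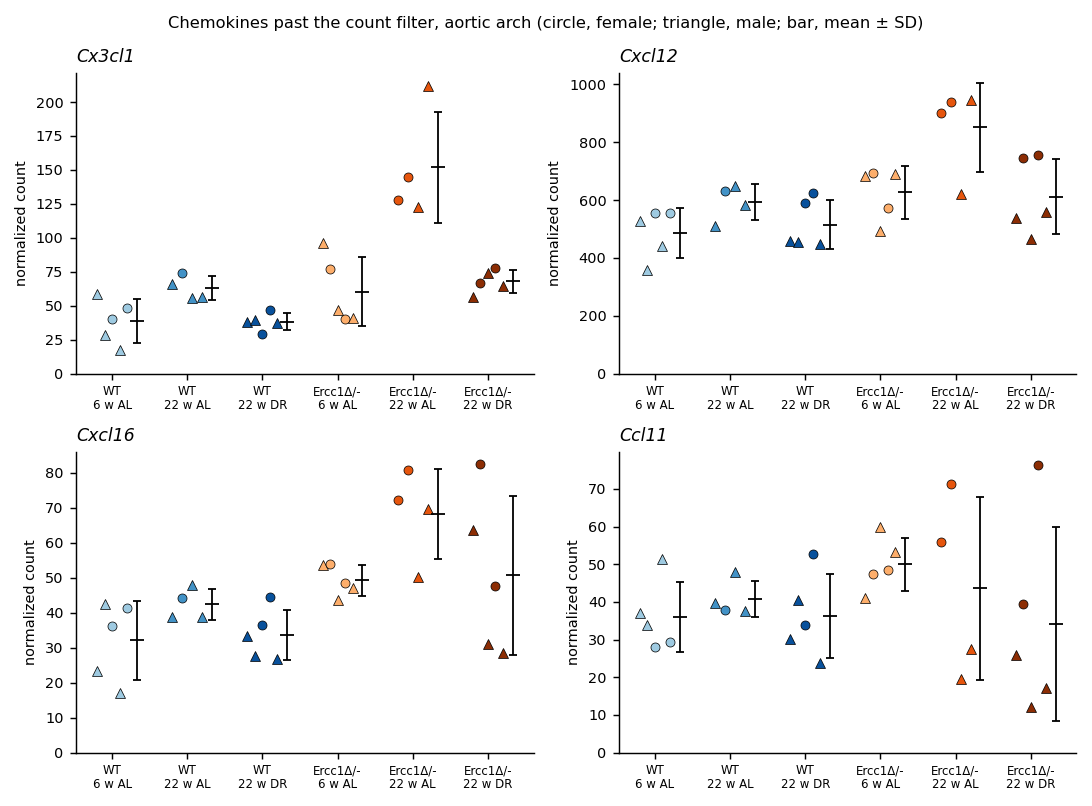
Normalized counts of the 4 tested chemokines in each mouse (circles, females; triangles, males), with the mean and SD of each group (n = 4 or 5). For Cx3cl1 the Ercc1Δ/- mice at 22 weeks on AL (123 to 212) stand above all other mice; for Ccl11 the Ercc1Δ/- groups of 22 weeks spread from 12.0 to 76.4.

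Cxcl12 had 138 to 1539 raw counts per library and was the best measured of the 10. In the AL-fed Ercc1Δ/- mice of 22 weeks it was at 901, 938, 622 and 946 normalized counts, and in the WT mice of that age and diet at 511, 632, 647 and 585. A single Ercc1Δ/- mouse, 013, lay within the WT range and the other 3 lay above it. The log2 fold change was 0.47 (SE 0.14, edgeR adjusted p = 0.029), or 1.39-fold. The call was lost without any 1 of WT mice 012, 018 and 025 or Ercc1Δ/- mice 004, 005 and 026, at adjusted p from 0.057 to 0.16, and in the fit of all genes with a count (0.051), while the log2 fold change stayed between 0.35 and 0.59.

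Under DR the 5 Ercc1Δ/- mice had 536, 744, 465, 754 and 560 normalized counts of Cxcl12 and the 5 WT mice 459, 454, 590, 623 and 449. The ranges overlapped and the log2 fold change of 0.25 did not pass (SE 0.10, edgeR adjusted p = 0.11). DR lowered Cxcl12 in Ercc1Δ/- mice by a log2 fold change of -0.45 (SE 0.11, edgeR adjusted p = 0.032), a call that was lost without any 1 of 6 libraries (AL mice 004, 005 and 026 and DR mice 006, 016 and 029; adjusted p from 0.053 to 0.16) without the sex term (0.11) and with library 003 added (0.051). In WT mice the diet difference was -0.28 (SE 0.10, edgeR adjusted p = 0.23). At 6 weeks the genotypes differed by 0.38 on the log2 scale (SE 0.13, edgeR adjusted p = 0.15), and the age differences were 0.41 in Ercc1Δ/- mice (adjusted p = 0.081) and 0.32 in WT mice (adjusted p = 0.46).

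Cxcl12 was the only one of the 4 tested chemokines to pass for sex, a term fitted as a covariate and read after its values were seen: among the 18 mice of 22 weeks, males were lower by a log2 difference of -0.34 (SE 0.08, edgeR adjusted p = 0.031; 0.947% of genes tested passed). Under DR the females had 590 and 623 normalized counts in WT mice and 744 and 754 in Ercc1Δ/- mice, each above all males of the same genotype (449 to 459 and 465 to 560). At 22 weeks on AL the sexes overlapped in both genotypes. At 6 weeks both WT females (554 and 557) lay above the WT males (359 to 527) and the Ercc1Δ/- sexes overlapped, and in the fit of AL-fed mice of both ages the sex term was -0.17 (SE 0.10, edgeR adjusted p = 0.99; 0.138% of genes tested passed).

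Cxcl16, the membrane-bound ligand of CXCR6 that also takes up oxidised lipoprotein, had 6 to 102 raw counts per library. The AL-fed Ercc1Δ/- mice of 22 weeks were at 72.2, 80.9, 50.2 and 69.7 normalized counts and the WT mice at 38.8, 44.2, 47.9 and 38.7, without overlap. The log2 fold change of 0.65 (SE 0.19, edgeR adjusted p = 0.031) fell short of the threshold in the fit of all genes with a count (adjusted p = 0.081) and without any 1 of WT mice 012, 018 and 025 or Ercc1Δ/- mice 004, 005 and 026 (0.056 to 0.14). At 6 weeks the genotypes did not overlap either, with Ercc1Δ/- mice at 43.8 to 54.0 and WT mice at 17.1 to 42.6, but the log2 fold change of 0.57 did not pass (SE 0.19, edgeR adjusted p = 0.15). The diet differences were -0.47 in Ercc1Δ/- mice and -0.39 in WT mice (edgeR adjusted p = 0.31 and 0.39).

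Ccl11 passed in none of the 9 comparisons, with log2 differences of -0.34 to 0.52. Its spread was widest in the older Ercc1Δ/- mice: on AL they had 55.9, 71.5, 19.5 and 27.4 normalized counts, and on DR 25.9, 39.4, 12.0, 76.4 and 17.2. In those 2 groups the 4 females (39.4 to 76.4) all lay above the 5 males (12.0 to 27.4), whereas WT females (33.9 to 52.8) and males (23.7 to 47.9) of 22 weeks overlapped. The sex term was -0.70 (SE 0.22, edgeR adjusted p = 0.12), whether it differed between genotypes was not tested, and this split was noticed after the values were seen.

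Among the 4 tested genes, 3 were called higher in Ercc1Δ/- mice at 22 weeks on AL, where 12.0% of all 12353 genes tested were called and 5.88% were called higher. Their median log2 fold change was 0.56, against 0.03 over all genes tested. At 22 weeks on DR 1 of 4 was called higher (13.0% of genes tested called, 5.97% higher), with a median of 0.38 against 0.00. The age comparison called 1 of 4 higher in Ercc1Δ/- mice (4.69% of genes tested called, 2.11% higher) and 0 of 4 in WT mice (0.235%), and the genotype comparison at 6 weeks 0 of 4 (1.7%), although its median was 0.54 against 0.02. The diet comparison called 2 of 4 lower in Ercc1Δ/- mice (1.64% of genes tested called, 0.988% lower; median -0.46 against 0.00) and 1 of 4 lower in WT mice (1.28% and 0.939%; -0.36 against 0.01). The interactions with age (0.842%) and with diet (0.0971%) called 0 of 4. The genotype, age and diet comparisons share their groups of 22 weeks on AL and are not independent, and the 4 were those abundant enough to test, not a sample of the 10.

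The other 6 chemokines were read in a second edgeR fit that kept every gene with a count (26899 genes among AL-fed mice, 26720 among mice of 22 weeks). Of all 10 chemokines, it called 4 higher in Ercc1Δ/- mice at 22 weeks on AL (6.19% of genes called, 2.7% higher): Ccl2, Ccl7, Ccl8 and Cx3cl1. It called 2 on DR (Ccl8 and Cx3cl1; 6.35% called, 2.49% higher), these 2 also with age in Ercc1Δ/- mice (2.28% called, 1.07% higher), 0 with age in WT mice (0.26%) and 0 at 6 weeks (0.97%). With diet it called 3 in Ercc1Δ/- mice (Ccl8, Cxcl12 and Cx3cl1; 0.906% called, 0.573% lower) and 2 in WT mice (Ccl8 and Cx3cl1; 1.15% called, 0.887% lower), and for the interactions with age (0.442%) and diet (0.146%) 0. For the low genes an exact two-sided permutation test of mean normalized counts, with no sex term, is also given for some comparisons. In all, 42 such tests were made, 11 gave p under 0.05, and these p were not adjusted. When every library was thinned to the smallest total of 921167 counts, Cx3cl1 and Ccl8 stayed called for genotype at 22 weeks on AL, for age in Ercc1Δ/- mice and for diet in Ercc1Δ/- mice, and the other calls of the 10 chemokines were lost.

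Ccl8, or MCP-2, attracts monocytes and lymphocytes and in the mouse binds CCR8. Its raw counts in the 4 AL-fed Ercc1Δ/- mice of 22 weeks were 63, 63, 5 and 15, or 56.8, 66.2, 13.9 and 37.3 normalized counts, and in the 4 WT mice 11, 11, 12 and 19, or 10.7, 5.07, 10.2 and 7.22. The lowest Ercc1Δ/- mouse, 013, was above the highest WT mouse. The log2 fold change was 2.54 (SE 0.46, edgeR adjusted p = 8.19e-04), and the exact permutation p of 0.0286 is the smallest that 4 against 4 allows.

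Under DR the raw counts of Ccl8 were 9, 2, 0, 6 and 3 in Ercc1Δ/- mice and 2, 0, 3, 1 and 0 in WT mice. In sum this was 20 counts against 6, a depth-adjusted ratio of 8.78, with overlapping ranges. The log2 fold change of 2.92 (SE 0.70, edgeR adjusted p = 0.0021, exact permutation p = 0.048) was no longer called without Ercc1Δ/- mouse 006 (2.31, adjusted p = 0.083). DR lowered Ccl8 by a log2 fold change of -2.40 in Ercc1Δ/- mice (SE 0.39, edgeR adjusted p = 1.07e-05) and of -2.92 in WT mice (SE 0.58, edgeR adjusted p = 7.22e-04). The WT mice on DR (0 to 1.95 normalized counts) all lay below those on AL (5.07 to 10.7), while in Ercc1Δ/- mice the diets overlapped through AL mouse 013 and DR mouse 006. Leaving out any 1 library ended neither diet call.

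At 6 weeks Ccl8 had 9, 2, 11, 4 and 3 raw counts in Ercc1Δ/- mice and 1, 1, 3, 0 and 0 in WT mice. The genotype difference of 2.67 on the log2 scale did not pass (SE 0.93, edgeR adjusted p = 0.27), and it did without WT mouse 011 (3.75, adjusted p = 0.048), whose 3 counts stand in a library of 955589. With age Ccl8 rose in Ercc1Δ/- mice by 2.76 (SE 0.48, edgeR adjusted p = 0.0012), with ranges that overlapped through the older mouse 013. In WT mice the age difference of 2.89 did not pass (SE 0.85, edgeR adjusted p = 0.26), again except without mouse 011 (3.97, adjusted p = 0.04). Neither interaction passed for Ccl8, at -0.13 for age (SE 0.64) and 0.52 for diet (SE 0.69; edgeR adjusted p = 1.00 for both).

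**Figure D3:**
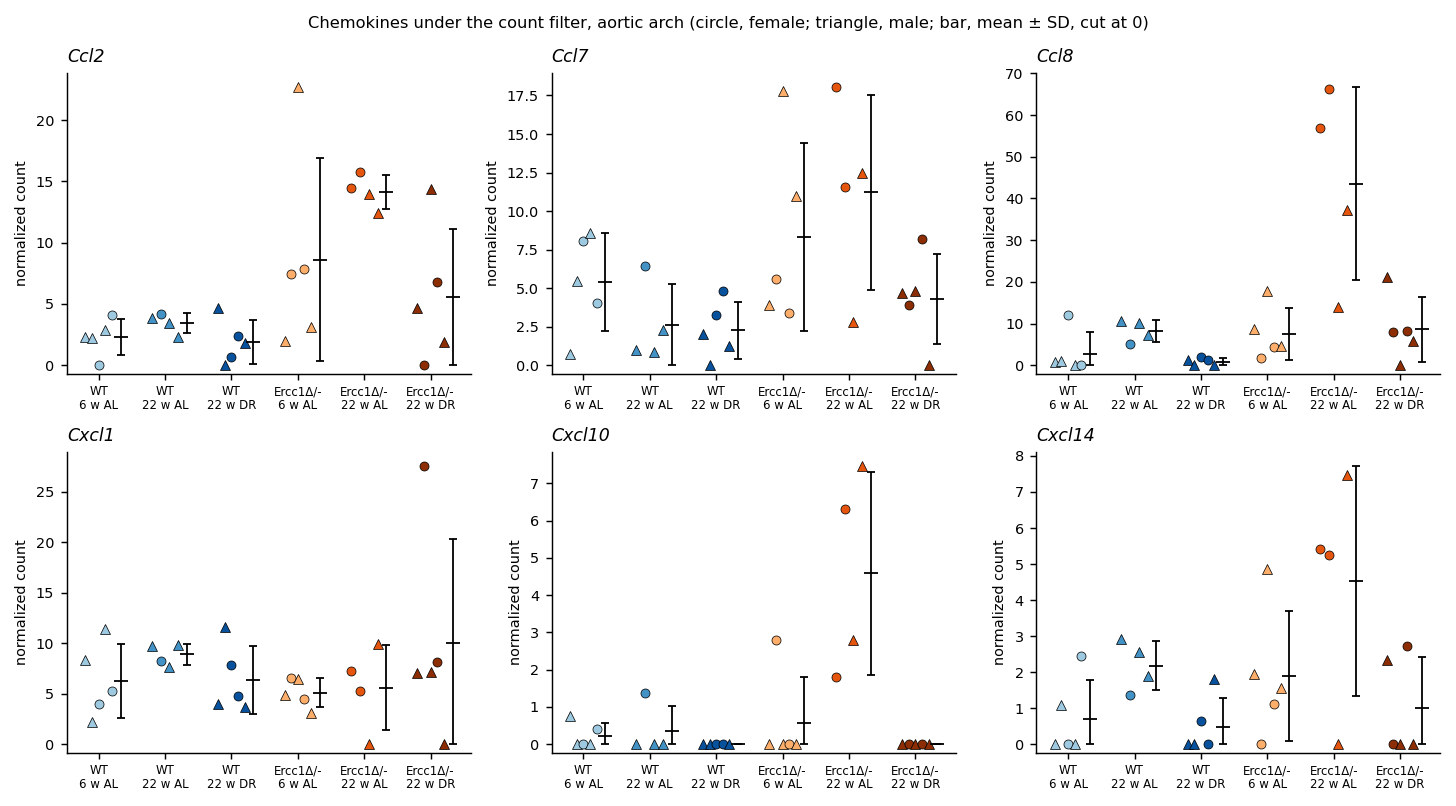
Normalized counts of the 6 chemokines under the count filter in each mouse (circles, females; triangles, males), with mean and SD (n = 4 or 5; bars stop at 0). For Ccl8 the Ercc1Δ/- mice of 22 weeks on AL reach 66.2 against at most 21.2 in all other mice, and for Cxcl10 all 10 mice on DR sit at 0.

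Ccl2, or MCP-1, and Ccl7, or MCP-3, are neighbouring genes whose products draw monocytes through CCR2. Ccl2 had 16, 15, 5 and 5 raw counts (14.4, 15.8, 13.9 and 12.4 normalized) in the AL-fed Ercc1Δ/- mice of 22 weeks and 4, 9, 4 and 6 (3.88, 4.14, 3.42 and 2.28 normalized) in the WT mice. The groups did not overlap, and the log2 fold change was 1.93 (SE 0.48, edgeR adjusted p = 0.0055; exact permutation p = 0.0286). No single library decided it. On DR the Ccl2 counts were 2, 0, 6, 5 and 1 against 7, 0, 1, 2 and 3 in WT mice, with overlap and a log2 fold change of 1.40 (SE 0.66, edgeR adjusted p = 0.26). Its diet difference in Ercc1Δ/- mice was -1.27 (SE 0.53, edgeR adjusted p = 0.38; exact permutation p = 0.032).

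Ccl7 had 20, 11, 1 and 5 raw counts in the AL-fed Ercc1Δ/- mice of 22 weeks and 1, 14, 1 and 6 in WT mice, with overlapping ranges. Its log2 fold change of 1.79 (SE 0.52, edgeR adjusted p = 0.025; exact permutation p = 0.057) was lost without Ercc1Δ/- mouse 004 (1.5, adjusted p = 0.23) or 026 (1.74, 0.064) or WT mouse 025 (1.68, 0.069), with library 003 added (1.51, 0.27) and in DESeq2 (1.95, 0.072). In the other comparisons its log2 differences ran from -1.09 to 0.93, and none passed.

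Cxcl10, an interferon-induced ligand of CXCR3, had 20 counts in all 28 libraries together, and 12 of them fell in the AL-fed Ercc1Δ/- mice of 22 weeks (2, 6, 1 and 3 counts). The WT mice of that age and diet had 0, 3, 0 and 0. The depth-adjusted ratio was 9.93, with an exact 95% interval from 2.68 to 54.9 that covers counting error only. All 10 mice on DR were at 0, which allows 1.27 normalized counts over the Ercc1Δ/- group and 0.484 over the WT group (3 counts over each group). The pooled level in Ercc1Δ/- mice on AL was 4.25 normalized counts (exact 95% interval 2.20 to 7.43). That is 3.34-fold the 1.27 allowed on DR, a ratio that leaves out the counting error of the AL level. In the fit of all genes these differences did not pass (edgeR adjusted p = 0.12 for genotype and 0.22 for diet), although without the sex term the genotype difference did (adjusted p = 0.033). The exact permutation p were 0.0286 for genotype and 0.0079 for diet, each the smallest its groups allow.

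Cxcl1, a ligand of CXCR2 that draws neutrophils, had 0 to 26 raw counts and passed in no comparison. It was the exception in direction at 22 weeks on AL, with 8, 5, 0 and 4 counts in Ercc1Δ/- mice and 10, 18, 9 and 26 in WT mice, and a log2 difference of -0.61 (SE 0.47, edgeR adjusted p = 0.62). The other 9 chemokines had values above 0 in that comparison. With diet the log2 difference of Cxcl1 was 0.52 in Ercc1Δ/- mice (SE 0.60, edgeR adjusted p = 0.91) and -0.67 in WT mice (SE 0.38, edgeR adjusted p = 0.70). Cxcl14 had 0 to 6 counts per library, 49 in all, and passed in no comparison; its log2 difference with diet was -1.88 in Ercc1Δ/- mice and -1.49 in WT mice (edgeR adjusted p = 0.58 and 0.67). In Ercc1Δ/- mice that was 3 counts against 14, a depth-adjusted ratio of 0.257 with an exact 95% interval from 0.0473 to 0.920. The exact permutation p of Cxcl14 for diet, not adjusted, were 0.087 in Ercc1Δ/- mice and 0.024 in WT mice.

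**Figure D4:**
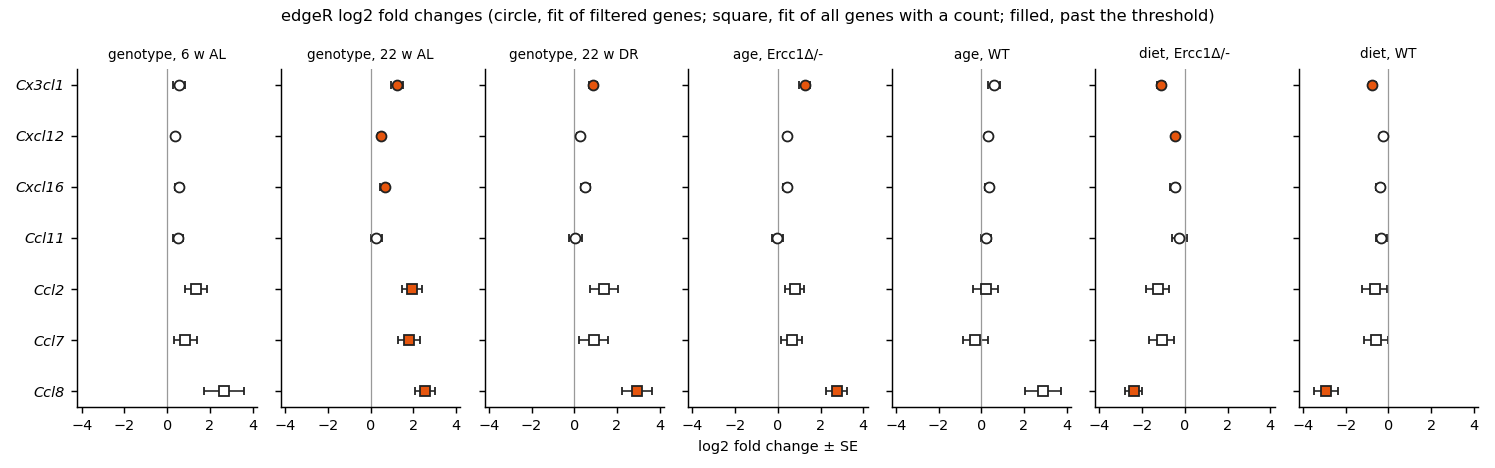
edgeR log2 fold changes (SE bars) of 7 chemokines in the 7 comparisons of 2 groups; circles come from the fit of 12353 genes, squares from the fit of all genes with a count, and filled symbols passed the threshold. Genotype panels show Ercc1Δ/- against WT, age panels 22 against 6 weeks on AL, and diet panels DR against AL at 22 weeks: Cx3cl1 and Ccl8 are filled in 5 of 7 panels each, and in both diet panels the symbols of Cx3cl1, Cxcl12, Cxcl16, Ccl11, Ccl2, Ccl7 and Ccl8 lie below 0. Cxcl1, Cxcl10 and Cxcl14 are not drawn.

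Receptors of these ligands were counted sparsely. Of 18 chemokine receptors, 18 had a count somewhere but 2 were tested, Ccr2 and Cxcr4, and 11 had fewer counts in all than there were libraries. Ccr2, the receptor of the Ccl2 and Ccl7 products on monocytes, was higher in Ercc1Δ/- mice at 22 weeks on AL (25.0 ± 20.2 against 8.09 ± 2.59 normalized counts, SD, n = 4 and 4; log2 fold change 1.78, SE 0.43, edgeR adjusted p = 0.008), and the call was lost in 3 of 15 alternatives, among them leaving out Ercc1Δ/- mouse 005 or WT mouse 018 (adjusted p at most 0.13). Its difference with DR was -1.65 in Ercc1Δ/- mice (SE 0.47, edgeR adjusted p = 0.07). Cx3cr1, the receptor of Cx3cl1, had 56 counts in all, with 16 over the AL-fed Ercc1Δ/- mice of 22 weeks and 1 over those on DR. These sums are not adjusted for depth, and Cx3cr1 stayed under the filter and was not tested. Ccr8 and Ccr3, which bind the Ccl8 and Ccl11 products, each had 1 count in all.

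Of 6 atypical receptors 3 were tested. Ackr3, which takes up CXCL12, was the most abundant at 215 to 305 normalized counts in group means, and with DR it and Ackr2, a scavenger of CC chemokines, were called lower in WT mice (log2 fold change -0.53 and -1.05, edgeR adjusted p = 0.045 and 0.034). These calls were lost in 12 and 9 of 16 alternatives. In that comparison 0.939% of genes tested were called lower. Ackr2 was higher in Ercc1Δ/- than in WT mice on DR (1.11, SE 0.29, edgeR adjusted p = 0.011), where 5.97% of genes tested were called higher. That call was lost in 2 of 17 alternatives, with thinning and without Ercc1Δ/- mouse 022. The median log2 fold change of the 3 at 22 weeks on AL was -0.21, with 0 called (12.0% of genes tested called).

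Genes for shedding and presenting chemokines were all abundant enough to test (11 of 11). Adam10 and Adam17, the proteases that release Cx3cl1 and Cxcl16, passed in no comparison, at log2 differences of 0.35 and 0.02 for genotype at 22 weeks on AL (edgeR adjusted p = 0.071 and 0.93). Sdc3, a heparan sulfate proteoglycan, was higher in Ercc1Δ/- mice in all 3 genotype comparisons, at 0.96, 1.46 and 1.05 on the log2 scale for 6 weeks, 22 weeks on AL and 22 weeks on DR (edgeR adjusted p = 0.036, 7.60e-04 and 1.06e-04), and with age in Ercc1Δ/- mice (0.82, adjusted p = 0.046); the first and last were lost in 8 of 17 and 9 of 16 alternatives, the other calls in none. The list median at 22 weeks on AL was 0.02, with 1 called higher and 1, Ndst1, lower (-0.48, edgeR adjusted p = 0.028, lost in 6 of 15 alternatives). In that comparison 12.0% of genes tested were called.

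Of 27 further chemokines 6 were tested, and Ccl6 and Ccl9, neighbouring genes made by macrophages, were the 2 called. Shares of all genes tested called higher in Ercc1Δ/- mice of 22 weeks were 5.88% on AL and 5.97% on DR. At 22 weeks on AL the Ercc1Δ/- mice had 142 to 446 normalized counts of Ccl6 against 42.8 to 75.6 in WT mice (log2 fold change 2.27, SE 0.47, edgeR adjusted p = 0.0063), and 80.9 to 262 of Ccl9 against 21.6 to 36.8 (2.35, SE 0.43, edgeR adjusted p = 0.002). On DR both remained higher (1.83 and 2.23, edgeR adjusted p = 9.47e-04 and 1.52e-04), and none of the 4 calls was lost in any alternative. With DR in Ercc1Δ/- mice 0 of 6 were called (1.64% of genes tested called, 0.988% lower), with a median log2 difference of -0.56. Ccl12, which lies between Ccl11 and Ccl8, had 88 counts in all.

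Genes listed under NF-kappaB feedback, which include inhibitors and subunits of that factor, were all tested (13 of 13). At 22 weeks 2 were called higher on AL (Nfkbie and Bcl3, 1.31 and 1.34 on the log2 scale, edgeR adjusted p = 0.017 and 0.022). On DR 5 were called higher (Nfkbia, Nfkbie, Nfkbiz, Tnfaip3 and Birc3, 0.50 to 0.97). Of all genes tested, 5.88% were called higher on AL and 5.97% on DR (12.0% and 13.0% in either direction). The list medians were 0.30 and 0.27, and 0 of the list were called with diet in either genotype. Each of these 7 calls was lost in 1 to 13 of its 15 or 17 alternatives. Of 12 inflammatory cytokines 3 were tested, and Il33, an alarmin of stromal and endothelial cells, was higher in Ercc1Δ/- mice on AL (0.84, SE 0.21, edgeR adjusted p = 0.012, lost in 4 of 15 alternatives) and on DR (0.95, SE 0.14, edgeR adjusted p = 4.54e-05, lost in none).

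Markers of other cells moved with several of these values. The 10 macrophage markers, all counted, summed to 2196 to 4000 normalized counts in the AL-fed Ercc1Δ/- mice of 22 weeks, to 982 to 1470 in the WT mice of that age and diet, to 1395 to 4683 in Ercc1Δ/- mice on DR and to 616 to 1128 in WT mice on DR. Of the 9 tested, 8 were called higher at 22 weeks on AL, 5 higher on DR, 5 higher with age in Ercc1Δ/- mice, and 5 lower with DR in Ercc1Δ/- mice. Over all genes tested, the shares called in that direction were 5.88%, 5.97%, 2.11% and 0.988%, in the same order. The marker calls lost most often were Cd14 on AL (6 of 15 alternatives), C1qc on DR (2 of 17) and Mrc1 with diet (9 of 16). With age Adgre1, C1qb, Cd14 and Lyz2 were lost in 7, 6, 6 and 4 of 16 alternatives, and Cd68 in none. T and NK cell markers (10 of 10 with counts) summed to at most 57.4 normalized counts in any mouse, B cell markers (6 of 6) to 60.0 and neutrophil markers (5 of 6, Ly6g at 0) to 72.0. The 8 endothelial markers summed to 2629 to 4256 in Ercc1Δ/- and 3229 to 4608 in WT mice at 22 weeks on AL, where 1 (Emcn) was called higher, and to 3365 to 5611 against 1835 to 3700 on DR, where 4 (Pecam1, Cdh5, Tie1 and Egfl7) were called higher, beside the DR difference of Cx3cl1. Of all genes tested, 5.88% were called higher in Ercc1Δ/- mice of 22 weeks on AL and 5.97% on DR. Of the 8 smooth muscle markers 7 were called lower in Ercc1Δ/- mice on AL and 8 on DR, beside 761 and 868 of the 12353 genes tested. In whole aorta fewer or more cells of a type and less or more RNA per cell cannot be told apart, and the part of these markers in the chemokine differences was not tested.

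Across the 28 mice, which share the group differences, the tested genes most like Cx3cl1 in log2 CPM were Vcam1 (Pearson r = 0.869), Tmem176b (0.838) and Tm4sf1 (0.823). For Ccl8 they were B2m (0.848), Lcp1 (0.825) and Mrc1 (0.818), for Ccl2 Coro1a (0.797), Ptprc (0.79) and Acp1 (0.789), and for Ccl7 Slfn9 (0.787), Heg1 (0.702) and St3gal4 (0.7). Cxcl12 was most like Lgals9 (0.816), Psmb8 (0.806) and H2-T23 (0.805), and Cxcl16 like Lgals9 (0.776), Ifi27l2a (0.771) and Tlcd2 (0.770). Among the chemokines themselves the closest pair was Cxcl12 and Cx3cl1 (0.768), while Ccl2 and Ccl7, adjacent in the genome, stood at 0.534. Values of genes with few counts also follow depth, and these r are descriptions.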

How the data were processed

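Aortic arch RNA of 29 mice, 1 of which (003) the study set aside, was sequenced from directional libraries with unique molecular identifiers. The authors demultiplexed with bcl2fastq 2.20, trimmed with fastp, aligned with STAR 2.7.10a to GRCm39, then removed duplicates with UMI-tools 1.1.2 and counted reads per gene over the gene body with HTSeq 2.0.2 (Ensembl 107); the deposited values are raw counts, 1 column per mouse. DESeq2 1.34.0 was the study's test. The 5 lines of unassigned reads (12.59% to 18.68% of reads from lowest to highest) were left out of totals and tests, and 0 columns went unused for want of a label.

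From these counts, the 12353 genes that exceeded 10 counts in over 10 of the 28 mice were tested with edgeR 4.0.16 (R 4.3.3, limma 3.58.1), by TMM and the quasi-likelihood test with sex as covariate, in a fit of the AL-fed mice and a fit of the mice of 22 weeks. A gene passed where its p, adjusted by Benjamini-Hochberg, did not exceed 0.05 and its change reached 1.2-fold (no fold limit for interactions). SEs were derived from the F statistic, and normalized counts refer to a library of 3683502 counts. Chemokines under the filter were read in a fit of all genes with a count and by exact permutation tests (Python 3.11.15). The genes named are the 10 chemokines, the genes of the lists that passed or on which the account of a chemokine turns, the 3 tested genes most correlated with each called chemokine (log2 CPM, prior count 2), and Ercc1. The members and lists were chosen with earlier results of these data known.

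Alternatives were DESeq2 1.42.0, no filter, library 003 added, no sex term, all 6 groups in one fit, thinning to 921167 counts, and leaving out each library. The scripts were tested on simulated counts for genotype at 22 weeks on AL, in the fit of 12353 genes only. That fit called 20 of 67 genes changed 1.5-fold, 47 of 67 changed 2-fold and 61 of 66 changed 3-fold. It also called 9 of 12153 unchanged genes. The fit of all genes with a count was not simulated. Each library is 1 mouse, so p-values measure the spread between these mice, and count intervals cover counting error only.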

Additional observations from a re-analysis of the deposited data

Results flagged for a closer look

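In 5 of 60 groups of values (10 chemokines in 6 groups of mice) 1 mouse stood apart from its group by Dixon's criterion. For normally distributed values chance does this in about 1 group in 20, a rate that need not hold for counts near 0. Ccl2 was at 22.68 normalized counts in Ercc1Δ/- mouse 015 of 6 weeks, against 7.876 in the next mouse. Ccl8 was at 12.05 in WT mouse 011 of 6 weeks, against 1.091. Cxcl10 was at 1.382 in WT mouse 018 of 22 weeks on AL and at 2.793 in Ercc1Δ/- mouse 008 of 6 weeks, where the others of each group were at 0. The flagged values of Ccl8 and Cxcl10 rest on 3 raw counts each, and a lone value among mice at 0 always meets the criterion. Cxcl12 was at 622.3 in Ercc1Δ/- mouse 013 of 22 weeks on AL, against 900.9 in the next.

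In library 003, a WT mouse of 22 weeks on AL that entered no comparison above, Ccl7 stood at 39.89 and Ccl11 at 119.7 normalized counts, where the highest of the 28 other mice had 18.04 and 76.37. These rest on 4 and 12 raw counts.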

How the results depend on the processing

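Of the calls of chemokines, those of Cx3cl1 and Ccl8 for genotype at 22 weeks on AL, age in Ercc1Δ/- mice and diet in Ercc1Δ/- mice held under every alternative tried. The number of the 4 tested chemokines called for genotype at 22 weeks on AL was 3 and went to 1 with thinning and to 1 to 3 on leaving out 1 library; on DR it was 1, 0 with thinning and 1 to 1 without 1 library. For age in Ercc1Δ/- mice it was 1, 2 with all 6 groups in one fit, and 1 to 2 without 1 library. For diet in Ercc1Δ/- mice it was 2, and 1 with library 003 added, with no sex term, with all 6 groups and with thinning, and 1 to 2 without 1 library. For diet in WT mice it was 1, 0 with library 003, with all 6 groups and with thinning, and 0 to 1 without 1 library. With no filter the count covers all 10 chemokines and was 4 for genotype on AL (Cxcl12 and Cxcl16 not among them), 2 on DR, 2 for age in Ercc1Δ/- mice, 3 for diet in Ercc1Δ/- mice and 2 for diet in WT mice. At 6 weeks, with age in WT mice and for both interactions it was 0 throughout for the 4 tested chemokines. With no filter it was also 0 in these comparisons when no library was left out. Ccl8 then passed at 6 weeks and with age in WT mice on leaving out WT mouse 011. Log2 differences that changed sign were uncalled ones. For Ccl11 these were genotype on AL (-0.043 to 0.47 without 1 library), genotype on DR (-0.11 with DESeq2, -0.54 to 0.21 without 1 library), age in Ercc1Δ/- mice (-0.32 to 0.17 without 1 library), and, with thinning, age in WT mice (-0.48), diet in Ercc1Δ/- mice (0.010), diet in WT mice (0.20), the interaction with age (0.30) and with diet (-0.19; -0.18 with no sex term, -0.058 with all 6 groups, -0.61 to 0.53 without 1 library). The interaction with age turned for Cxcl12 (-0.050 with thinning, -0.025 to 0.21 without 1 library) and Cxcl16 (-0.085 to 0.23 without 1 library), and that with diet for Cxcl16 (0.047 with thinning, -0.25 to 0.042 without 1 library). The cause was not tested. Of 50 calls of list genes and macrophage markers, 17 held in every alternative and 29 were lost on leaving out 1 library. No paired analysis was possible because each mouse gave 1 sample and no replicate number recurs between groups. Depth limits the 6 low chemokines, above all Cxcl10 and Cxcl14 with at most 6 counts per library, and a p that misses the threshold there does not show that groups were alike.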
